A study of Mus musculus with 9 samples.

Results

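RUNX, GATA and FOX transcription factors were followed in mouse bone marrow-derived Mϕs treated with IL-4 or IL-6. The members were taken by symbol from the deposited table: Runx1, Runx2, Runx3 and the partner gene Cbfb, Gata1 and Gata2, and Foxp1, Foxp4, Foxo1 and Foxo3, which are 10 of 53379 genes. BM cells of wild-type C57BL/6 mice were grown for 3 days with 10 ng/ml MCSF (CSF-1). They were then kept for 4 days in 10 ng/ml MCSF alone (Control), in MCSF with 10 ng/ml IL-4, or in MCSF with 100 ng/ml IL-6. These doses are those of each sample's own treatment label, and the general protocol text misprints that of IL-6. The paper's methods give another IL-4 dose, and its legends give other doses of both cytokines and a shorter treatment, so the doses are uncertain. Each group holds 3 libraries, given as 3 mice, and all Mϕs had MCSF throughout. The values are FPKM, fragments per kilobase of exon and per 1000000 fragments, so levels can be compared between genes per length. No sort of the cultures is stated, and other cells of BM origin can remain in them.

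RUNX proteins bind DNA through the runt domain, and their affinity and stability depend on the non-DNA-binding partner CBFβ. Runx1 is needed for blood stem cells to arise and shapes myeloid maturation, Runx2 drives bone formation, and Runx3 acts in T cells, NK cells and myeloid cells. GATA factors bind GATA motifs through zinc fingers. Gata1 is the master factor of erythroid cells, megakaryocytes, eosinophils and mast cells, and Gata2 maintains progenitors and mast cells and is replaced by Gata1 as erythroid cells mature. FOX proteins share the forkhead domain. Foxp1 and Foxp4 act mainly as repressors, and Foxo1 and Foxo3 are held in the cytoplasm by AKT phosphorylation and turn on genes of stress resistance, cell cycle arrest and atrophy when that signal falls.

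The stretches before the starts of the 4 members that passed the test against Control are shown, since the differences reported for them are in transcript level. They are RefSeq windows of GRCm38.p6, 5′ to 3′ in the direction of the gene, and none holds an exonic base of its own gene in GENCODE M21. The Foxp4 window is chr17:47924646-47924882 on the minus strand, directly upstream of the gene at chr17:47867133-47924645. The Runx3 window is chr4:135120395-135120644 on the plus strand, upstream of the gene at chr4:135120652-135177990, and its 5′ part overlaps an exon of the noncoding gene Gm16225 on the other strand. The Gata1 window is chrX:7967911-7968160 on the minus strand and lies in an intron of the gene as GENCODE M21 annotates it, chrX:7959260-7978071. The Gata2 window is chr6:88193641-88193890 on the plus strand, directly upstream of the gene at chr6:88193891-88207032. Capitals mark the letters of a RUNX motif read on the other strand.
Foxp4: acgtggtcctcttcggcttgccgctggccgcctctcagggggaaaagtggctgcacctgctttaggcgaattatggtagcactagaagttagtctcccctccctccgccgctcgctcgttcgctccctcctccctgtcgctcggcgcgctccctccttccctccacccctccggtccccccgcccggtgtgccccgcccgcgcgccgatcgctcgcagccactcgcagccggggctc
Runx3: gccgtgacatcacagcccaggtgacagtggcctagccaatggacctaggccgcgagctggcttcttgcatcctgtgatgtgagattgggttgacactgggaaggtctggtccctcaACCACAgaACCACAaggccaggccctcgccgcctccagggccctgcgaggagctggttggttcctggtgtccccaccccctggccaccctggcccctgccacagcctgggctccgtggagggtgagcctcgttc
Gata1: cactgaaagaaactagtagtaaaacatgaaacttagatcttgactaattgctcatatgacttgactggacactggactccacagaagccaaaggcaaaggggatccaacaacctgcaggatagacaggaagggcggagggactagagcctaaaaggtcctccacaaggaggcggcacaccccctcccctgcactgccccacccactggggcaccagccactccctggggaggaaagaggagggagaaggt
Gata2: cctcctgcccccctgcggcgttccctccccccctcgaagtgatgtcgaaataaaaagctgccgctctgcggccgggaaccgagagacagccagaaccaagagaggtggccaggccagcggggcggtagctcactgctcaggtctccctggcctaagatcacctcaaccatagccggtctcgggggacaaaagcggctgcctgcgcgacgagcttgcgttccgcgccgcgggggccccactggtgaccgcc
The 250 bases before 32851 RefSeq starts were searched on both strands for letters known from STAT, RUNX, GATA and FOX motifs. The STAT letters TTCNNNGAA were in 7.02% of these windows. The RUNX letters TGTGGT were in 14.0%. Of the GATA letters, AGATAA was in 9.99%, and the other form searched, TGATAA, in 7.94%. The FOX letters GTAAACA were in 3.17%. All 10 members had a window, 15 in all, and 13 of these held none of the letters. The upstream Runx3 window held the RUNX letters at 2 places, at −134 to −129 and −126 to −121 from the start, and the Runx2 window held them at −80 to −75. Of the 250 bases of that Runx2 window, 170 are exonic in Runx2 itself in M21, and the match lies among them. A match is a description of the letters and not a site in use. The windows shown are rich in G and C for Foxp4 (69.6%), Gata2 (67.2%) and Runx3 (65.2%), and at 54% for Gata1, against a median of 52.4% over all windows.

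The libraries hold 29988160 to 39909571 fragments. Socs3, which IL-6 induces through STAT3, was at 2.27 ± 0.653 FPKM in Control and 80.4 ± 5.42 FPKM with IL-6 (mean ± SD, n = 3). Arg1, an IL-4 target through STAT6, was at 0.577 ± 0.156 FPKM in Control and 1044 ± 273 FPKM with IL-4 (mean ± SD, n = 3). All 9 Mϕ markers were measured above the filter, with a summed level of 17016 to 19483 FPKM in Control, 6260 to 7365 FPKM in IL-4 Mϕs and 21401 to 22279 FPKM in IL-6 Mϕs. Lyz2 alone gave most of this sum in every library. With IL-4, 7 of the 9 were called lower (16.3% of all genes) and 0 higher. Itgam, not called, was at 35.2, 33.7 and 36.8 FPKM in Control and 72.3, 70.7 and 37.2 FPKM with IL-4. With IL-6, 2 of the 9 were called higher (4.58% of all genes), C1qa and Cd14, and 1 lower (3.82%). The latter was Cd68, at 1513 ± 178 FPKM in Control and 952 ± 17.0 FPKM with IL-6. Paneth and goblet cell genes of the gut gave 25.0 to 35.5 of every 1000000 fragments in Control and IL-4 #1, but 0.099 to 0.245 elsewhere. Control and IL-6 thus share no set, and the set can be added to that comparison only through the IL-4 libraries, which lie in both. IL-4 #3 stood apart from IL-4 #1 and #2, with a root mean square log2 difference of 1.23 and 1.09 against 0.536 between those 2.

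**Figure D1:**
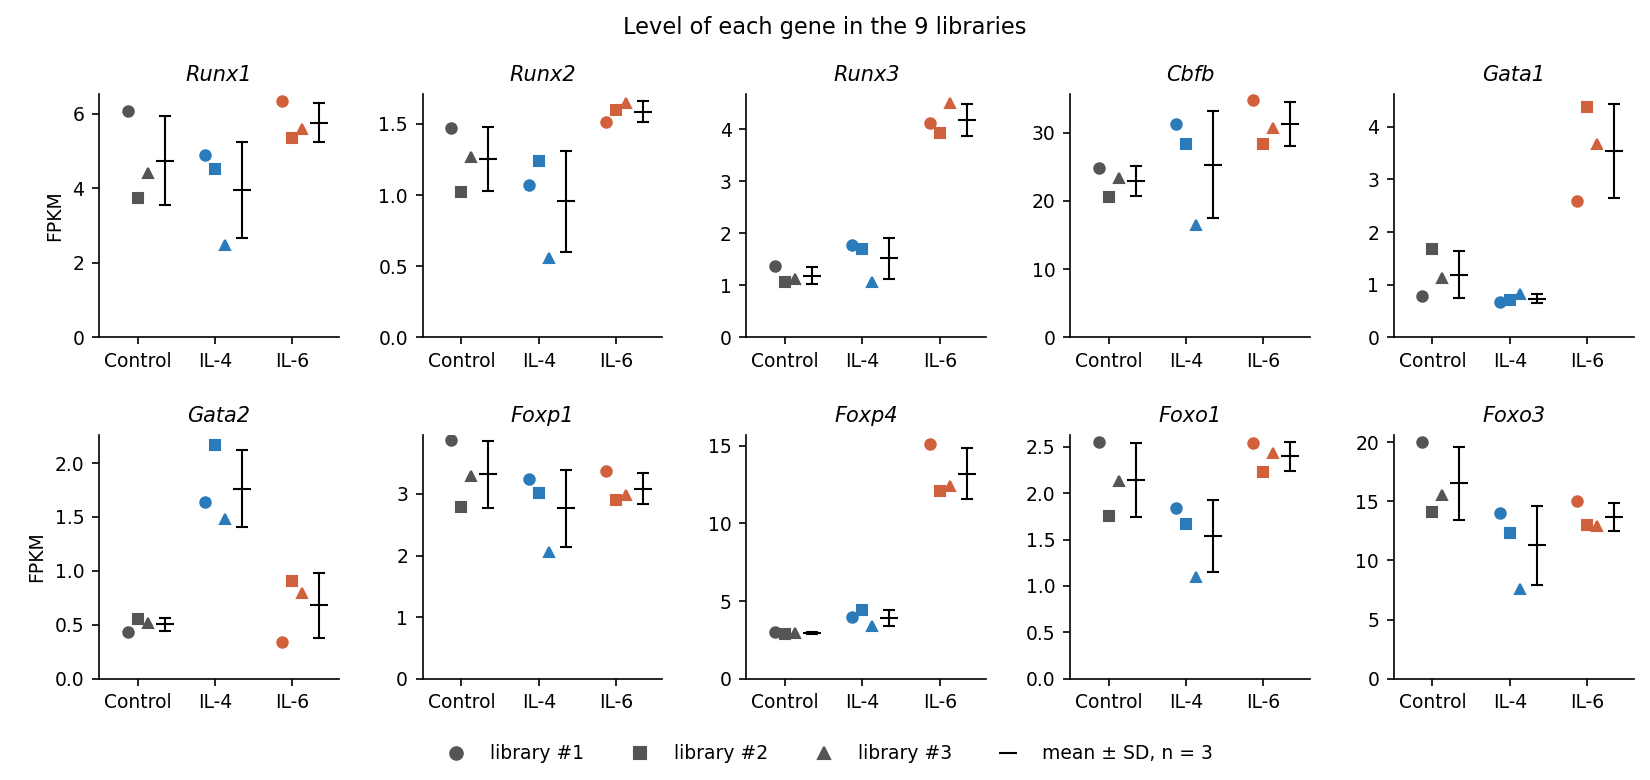
FPKM of the 10 genes in each library (points, shaped by library number) with mean ± SD of 3 libraries per group. Foxp4 and Runx3 lie far above Control in all 3 IL-6 libraries, Gata2 is highest in the 3 IL-4 libraries, and IL-4 #3 is the lowest of the 9 libraries for Runx1, Runx2, Cbfb, Foxp1, Foxo1 and Foxo3.

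The 10 members covered a wide range of levels in Control Mϕs. Cbfb was the most abundant at 22.9 ± 2.17 FPKM, followed by Foxo3 at 16.5 ± 3.10 FPKM, and the libraries of these 2 genes did not overlap with each other. Runx1 at 4.74 ± 1.20 FPKM, Foxp1 at 3.32 ± 0.537 FPKM and Foxp4 at 2.94 ± 0.0587 FPKM came next, and each overlapped with its neighbour in this order. Foxo1 followed at 2.14 ± 0.403 FPKM. Runx2 at 1.25 ± 0.227 FPKM, Gata1 at 1.19 ± 0.449 FPKM and Runx3 at 1.19 ± 0.161 FPKM overlapped, and Gata2 was lowest at 0.503 ± 0.0617 FPKM. All 10 passed the filter of a mean of 0.5 FPKM over the 9 libraries, Gata2 with 0.982 FPKM. The fragments behind a value ranged from 52 for the lowest Gata1 library to 5291 for the highest Foxo3 library.

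Each comparison was tested with limma across 12824 genes, and a gene was called at a Benjamini-Hochberg adjusted p under 0.05. Fold changes are on the scale of log2(FPKM + 0.1). With IL-4, 1 of 10 members was called, Gata2, which was higher. In that comparison 24.8% of all genes tested were called, 8.55% higher and 16.3% lower. With IL-6, 3 of 10 members were called, all higher, against 8.40% of all genes, 4.58% higher and 3.82% lower. Between IL-6 and IL-4, 4 of 10 members were called, 3 higher with IL-6 and 1 lower, against 34.1% of all genes, 20.8% higher and 13.3% lower. The median log2 fold change of the members was −0.27, 0.32 and 0.61 in the 3 comparisons, beside −0.20, 0.00 and 0.22 for all genes tested. Rescaling the libraries by their median ratio moved the median of all genes with IL-4 from −0.20 to −0.01 and the calls from 1096 higher and 2090 lower to 1574 higher and 1618 lower. The calls between IL-6 and IL-4 moved likewise from 2671 higher and 1704 lower to 2280 higher and 2205 lower. Both cytokine comparisons share the Control libraries. The study displayed transcription factors chosen for their rise with IL-6 in these same libraries, so the calls with IL-6 are not independent evidence of direction.

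**Figure D2:**
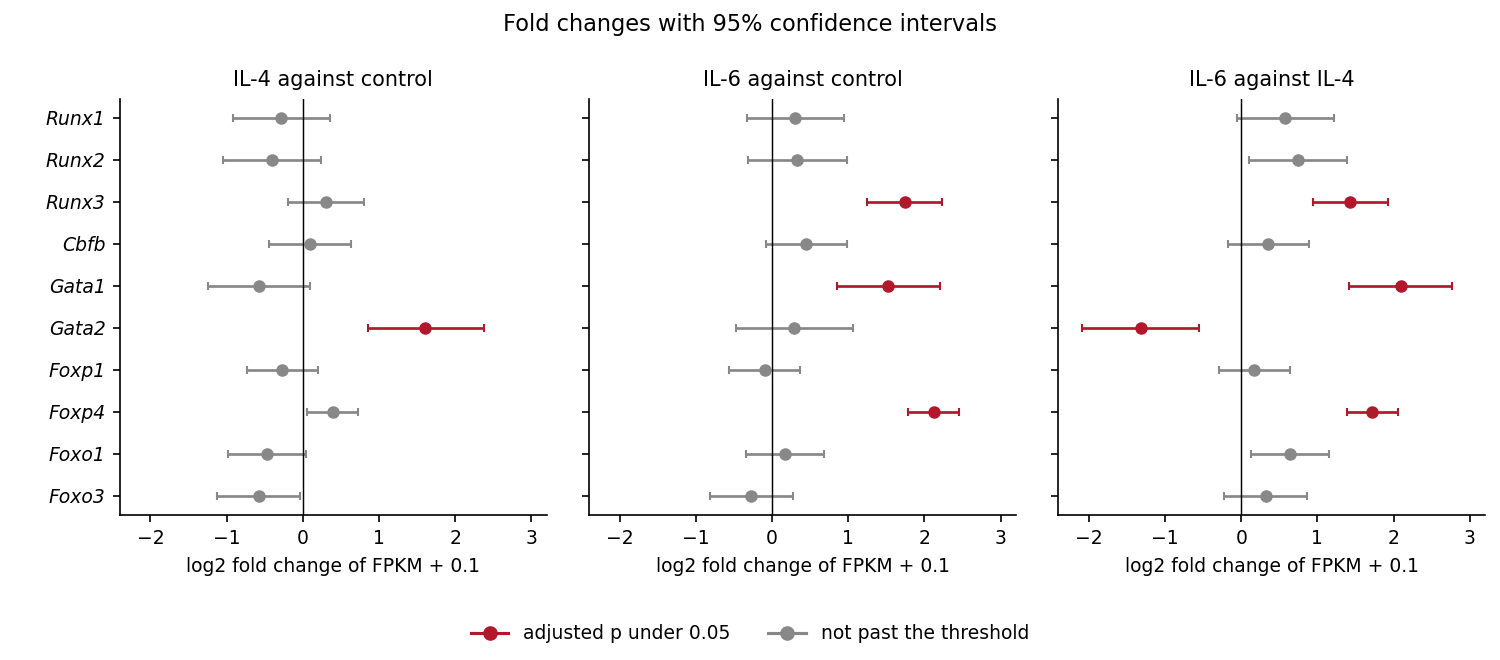
Log2 fold changes of FPKM + 0.1 with 95% confidence intervals from limma, for IL-4 against Control, IL-6 against Control and IL-6 against IL-4. Red points passed an adjusted p under 0.05: Gata2 with IL-4, Runx3, Gata1 and Foxp4 in IL-6 Mϕs, and these 4 between the cytokines, Gata2 there on the lower side.

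Runx3 rose with IL-6. Its level was 1.37, 1.06 and 1.13 FPKM in the 3 Control libraries, 1.78, 1.70 and 1.07 FPKM in IL-4 Mϕs and 4.11, 3.92 and 4.51 FPKM in IL-6 Mϕs. The IL-6 libraries lay above all 6 others, and the IL-4 libraries overlapped with Control. The mean was 3.52 times that of Control, a log2 fold change of 1.74 (SE 0.214) with an adjusted p of 0.00221 by limma. The exact two-sided permutation p was 0.1, the smallest that 3 libraries against 3 can give. Runx3 was also higher with IL-6 than with IL-4, with a log2 fold change of 1.43 (SE 0.214) and a limma adjusted p of 0.00137. Within the set of libraries low in gut transcripts, the IL-6 mean was 3.02 times that of IL-4 #2 and #3. With the set in the model the IL-6 value for Runx3 was 2.12 (adjusted p = 0.0458 by limma). The set term there comes only from IL-4 #1 against IL-4 #2 and #3. This fit therefore cannot show that the difference from Control is free of the set. Under IL-4 the log2 value for Runx3 was 0.30 (95% interval −0.19 to 0.80). It passed the test after median-ratio rescaling (0.49, adjusted p = 0.0499), after quantile normalization (0.56, adjusted p = 0.0122) and without IL-4 #3 (0.52, adjusted p = 0.0212), and within the set rich in gut transcripts IL-4 #1 was 1.50 times the Control mean.

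Runx1 was the most abundant of the DNA-binding RUNX genes in every library and passed no test. It measured 6.07, 3.74 and 4.41 FPKM in Control, 4.89, 4.51 and 2.49 FPKM in IL-4 Mϕs and 6.35, 5.36 and 5.58 FPKM in IL-6 Mϕs. Control and IL-6 overlapped. Against Control the log2 fold change in IL-6 Mϕs was 0.30 (95% interval −0.33 to 0.94) and in IL-4 Mϕs −0.28 (95% interval −0.92 to 0.36), and without IL-4 #3 the latter was 0.02. Runx2, the osteoblast factor, was at 1.47, 1.02 and 1.27 FPKM in Control, 1.07, 1.24 and 0.556 FPKM in IL-4 Mϕs and 1.51, 1.60 and 1.65 FPKM in IL-6 Mϕs. All 3 IL-6 libraries were above Control, by little. The IL-6 log2 fold change was 0.33 (95% interval −0.31 to 0.98) and 0.74 between IL-6 and IL-4 (adjusted p = 0.0732 by limma). The latter passed without IL-4 #2 (0.94, adjusted p = 0.046). The 8 osteoblast and stromal markers summed to at most 0.697 FPKM in any library. In M21, 5.87% of the exonic bases of Runx2 are shared with Runx2os1 on the opposite strand, and the counting is not stated to use strand.

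Cbfb, whose product stabilizes the RUNX proteins, measured 24.8, 20.5 and 23.3 FPKM in Control, 31.2, 28.3 and 16.4 FPKM in IL-4 Mϕs and 34.8, 28.4 and 30.7 FPKM in IL-6 Mϕs. The IL-6 libraries lay above Control, while IL-4 #3 fell below and the other IL-4 libraries above. The log2 fold change with IL-6 was 0.45 (95% interval −0.08 to 0.98, adjusted p = 0.328 by limma). It was called with only the Control and IL-6 groups in the fit (0.45, adjusted p = 0.0306) and without IL-4 #3 (0.45, adjusted p = 0.019). For IL-4 against Control it was 0.10 (95% interval −0.44 to 0.63), and without IL-4 #3 it was 0.38 (adjusted p = 0.036). Cbfb was 3.25 ± 0.403 times the summed level of Runx1, Runx2 and Runx3 in Control, 3.94 ± 0.117 times in IL-4 Mϕs and 2.71 ± 0.167 times in IL-6 Mϕs (SD, n = 3).

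Ratios within a library do not depend on how libraries are scaled, and they are given as values with no test. Runx3 made up 15.4%, 18.2% and 16.6% of the summed FPKM of Runx1, Runx2 and Runx3 in Control, 23.0%, 22.8% and 25.9% in IL-4 Mϕs and 34.4%, 36.0% and 38.4% in IL-6 Mϕs. The 3 groups did not overlap. Runx3 in IL-4 #3 was 0.612 times the mean of IL-4 #1 and #2, below the median of 0.766 over all genes. Its share was not low there because Runx1 (0.530) and Runx2 (0.482) were lower still. The share of Runx1 was 65.7% ± 2.11 in Control, 61.4% ± 1.49 in IL-4 Mϕs and 49.9% ± 2.82 in IL-6 Mϕs (SD, n = 3). Foxp4 over Foxp1 was 0.778, 1.03 and 0.890 in Control, 1.22, 1.47 and 1.65 in IL-4 Mϕs and 4.47, 4.17 and 4.16 in IL-6 Mϕs. Gata1 over Gata2 was 1.78, 3.00 and 2.19 in Control, 0.411, 0.324 and 0.564 in IL-4 Mϕs and 7.61, 4.82 and 4.61 in IL-6 Mϕs. Gata1 exceeded Gata2 in all Control and IL-6 libraries and fell below it in all IL-4 libraries. Foxo3 over Foxo1 was 7.84, 8.06 and 7.29 in Control, 7.57, 7.35 and 6.88 in IL-4 Mϕs and 5.88, 5.83 and 5.32 in IL-6 Mϕs.

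**Figure D3:**
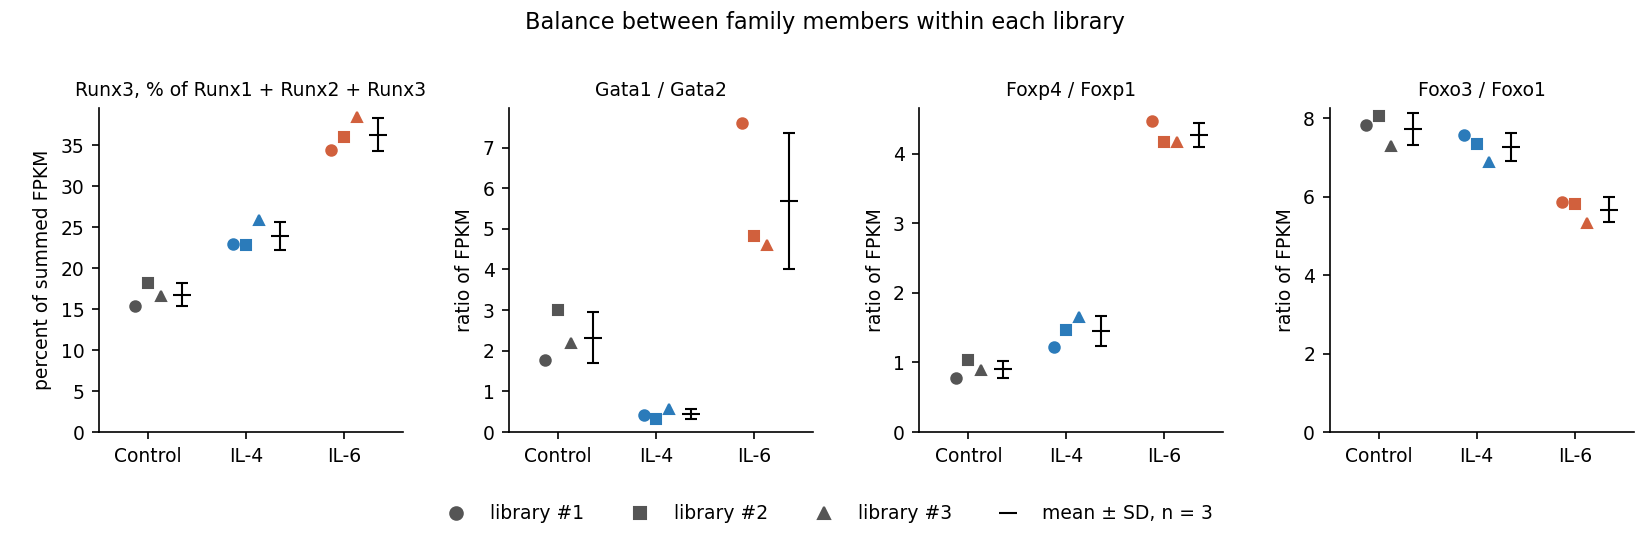
Balance within each library: Runx3 as percent of the summed FPKM of Runx1, Runx2 and Runx3, and the FPKM ratios Gata1 to Gata2, Foxp4 to Foxp1 and Foxo3 to Foxo1, with mean ± SD of 3 libraries. The share of Runx3 and the ratio of Foxp4 to Foxp1 step up from Control to IL-4 to IL-6 with no overlap, and the ratio of Gata1 to Gata2 is below 1 only in the IL-4 libraries.

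Between IL-6 and IL-4 the GATA genes moved in opposite directions, Gata1 higher with IL-6 and Gata2 higher with IL-4. Gata2 rose with IL-4, from 0.435, 0.556 and 0.517 FPKM in Control to 1.64, 2.17 and 1.48 FPKM, and was at 0.340, 0.908 and 0.796 FPKM in IL-6 Mϕs. All 3 IL-4 libraries lay above the other 6, and IL-6 overlapped with Control. The mean with IL-4 was 3.50 times that of Control, a log2 fold change of 1.61 (SE 0.334) with an adjusted p of 0.00942 by limma. The call was lost when the set was added to the model (1.53, adjusted p = 0.101). IL-4 #1 was 3.25 times the Control mean within its set. Between IL-6 and IL-4, Gata2 was lower by a log2 fold change of −1.32 (SE 0.334, adjusted p = 0.0171 by limma). That call was lost with only these groups in the fit (adjusted p = 0.0509) and without IL-4 #2 (−1.17, adjusted p = 0.0558). IL-6 against Control gave 0.29 (95% interval −0.47 to 1.06).

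Gata1 rose with IL-6. It was at 0.776, 1.67 and 1.13 FPKM in Control, 0.672, 0.704 and 0.832 FPKM in IL-4 Mϕs and 2.59, 4.37 and 3.67 FPKM in IL-6 Mϕs. The IL-6 libraries lay above all others, and the lowest Control library lay among the IL-4 libraries. The mean with IL-6 was 2.97 times that of Control, a log2 fold change of 1.52 (SE 0.294) with an adjusted p of 0.0171 by limma. The call was lost with the set in the model (1.36, adjusted p = 0.254) and without Control #3 (1.52, adjusted p = 0.0734), IL-6 #2 (1.36, adjusted p = 0.0802) or IL-6 #3 (1.48, adjusted p = 0.0768). Between IL-6 and IL-4 the log2 fold change was 2.10 (SE 0.294, adjusted p = 0.00106 by limma), called under all 9 other settings that tested Gata1 and with any library left out. At a mean of at least 5 FPKM Gata1 was not tested. Within the set low in gut transcripts the IL-6 mean was 4.61 times that of IL-4 #2 and #3. With IL-4 against Control the log2 fold change was −0.57 (95% interval −1.25 to 0.10).

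Markers of other cell types differed between the groups beside both GATA genes, and their part in the results was not tested. In bulk RNA, fewer cells of a type and less RNA per cell cannot be told apart. All 7 megakaryocyte markers were measured above the filter, and 6 of 7 rose with IL-6 (against 4.58% of all genes), while 3 of 7 fell with IL-4 (against 16.3%). Their summed level was 322 to 493 FPKM in Control, 149 to 228 FPKM in IL-4 Mϕs and 1242 to 2507 FPKM in IL-6 Mϕs. Pf4, platelet factor 4, gave most of this sum and rose with IL-6 (log2 fold change 2.09, adjusted p = 0.00747 by limma). Gp9, a subunit of the platelet receptor for von Willebrand factor, was at 4.10, 6.47 and 4.95 FPKM in Control and 12.7, 26.8 and 22.8 FPKM in IL-6 Mϕs. The 10 erythroid genes summed to 4.69 to 13.4 FPKM in Control, 1.21 to 8.05 FPKM in IL-4 Mϕs and 4.70 to 13.2 FPKM in IL-6 Mϕs. Klf1 was at or below 0.17 FPKM in every library. Of the 4 erythroid genes tested, 1 fell with IL-4 (16.3% of all genes), Epor (−2.97, adjusted p = 0.000678 by limma). With IL-6 0 of 4 were called (8.40% of all genes), with 1 at an unadjusted p under 0.05. Epor was at 4.74 ± 1.21 FPKM in Control, 0.505 ± 0.0519 FPKM with IL-4 and 2.18 ± 0.956 FPKM with IL-6. The 5 eosinophil markers summed to 69.7 to 162 FPKM in Control, 16.5 to 21.8 FPKM in IL-4 Mϕs and 18.9 to 30.0 FPKM in IL-6 Mϕs. Prg2 gave most of this sum in every library. Of the 4 tested, 2 fell with IL-4 and 1 with IL-6, against 16.3% and 3.82% of all genes. Siglecf, not called, was at 1.284, 1.315 and 1.399 FPKM in Control and 4.027, 2.803 and 1.41 FPKM with IL-4.

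Mast cell and basophil markers were highest with IL-4, where Gata2 was highest. They summed to 16.3 to 34.5 FPKM in Control, 52.2 to 86.4 FPKM in IL-4 Mϕs and 9.89 to 29.6 FPKM in IL-6 Mϕs. Of the 12 markers, 7 passed the filter, and with IL-4 4 of these rose and 1 fell (8.55% and 16.3% of all genes). Mcpt8, a basophil protease, was at 1.69, 4.38 and 5.03 FPKM in Control and 24.4, 13.4 and 18.0 FPKM with IL-4. Fcer1a, which encodes the IgE receptor α chain, was at 0.517, 0.702 and 1.29 FPKM in Control and 5.48, 4.36 and 6.08 FPKM with IL-4. Kit, the stem cell factor receptor of mast cells and progenitors, was the one that fell (−1.35, adjusted p = 0.041 by limma). The mast cell proteases Mcpt4 and Tpsb2 were listed at 0 in all 9 libraries, and Tpsab1 was above 0 only in Control #1 (0.014 FPKM). Other proteases of the list were higher with IL-4. Cpa3 was called (log2 fold change 1.48, adjusted p = 0.0201 by limma). Cma1, at 0 in all Control and IL-6 libraries, was at 0.51, 0.303 and 0.667 FPKM with IL-4.

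**Figure D4:**
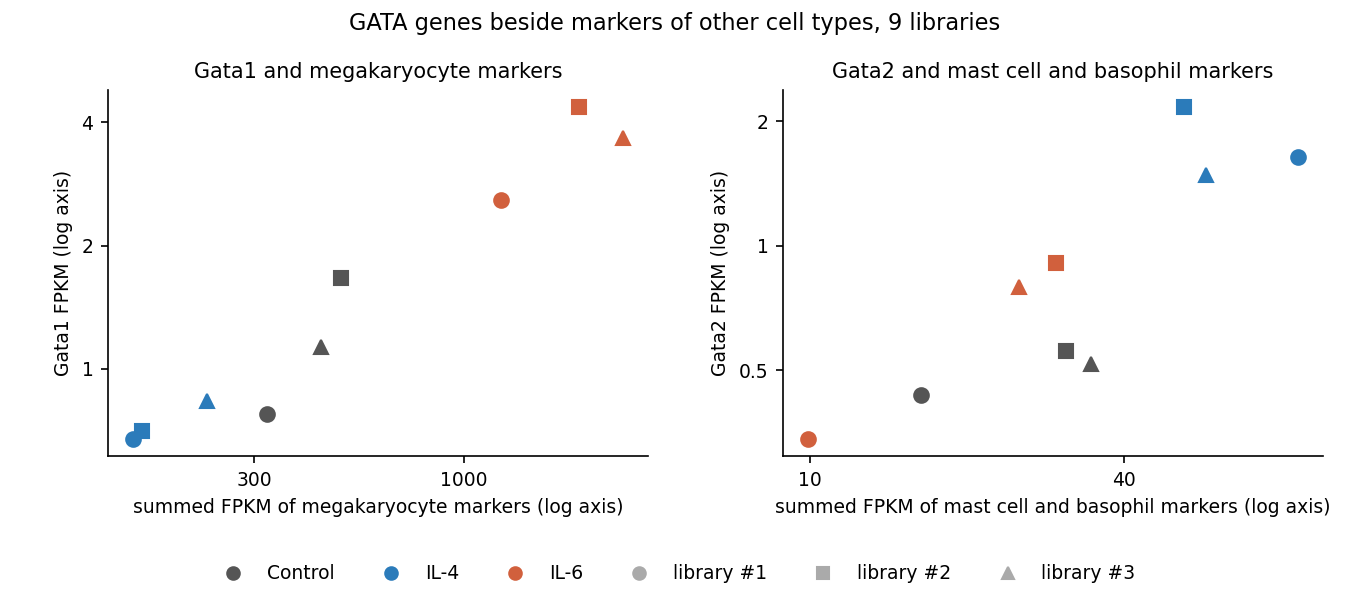
Gata1 FPKM against the summed FPKM of 7 megakaryocyte markers, and Gata2 FPKM against the summed FPKM of 12 mast cell and basophil markers, in the 9 libraries on log axes. The 3 IL-6 libraries are highest on both axes for Gata1, and the 3 IL-4 libraries are highest on both axes for Gata2.

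Foxp4 had the largest rise of the 10 genes with IL-6. Its level was 3.01, 2.89 and 2.93 FPKM in Control, 3.94, 4.43 and 3.41 FPKM in IL-4 Mϕs and 15.1, 12.1 and 12.4 FPKM in IL-6 Mϕs. The 3 groups did not overlap. The mean with IL-6 was 4.49 times that of Control, a log2 fold change of 2.12 (SE 0.146) with an adjusted p of 0.000137 by limma. Foxp4 was called under every other setting and with any library left out, with log2 fold changes of 1.84 to 2.18, the highest adjusted p being 0.0193. That value is from the fit with the set, whose term comes only from the IL-4 libraries, so it cannot separate IL-6 from the set. It was higher with IL-6 than with IL-4 by 1.72 (SE 0.145, adjusted p = 5.97e-05 by limma), and the IL-6 mean was 3.37 times that of IL-4 #2 and #3 within the set low in gut transcripts. For IL-4 against Control its log2 fold change was 0.40 (SE 0.145, adjusted p = 0.0813 by limma). It passed after median-ratio rescaling (0.59, adjusted p = 0.0116), quantile normalization (0.61, adjusted p = 0.0112) and without IL-4 #3 (0.49, adjusted p = 0.0133). Foxp1, the related repressor that limits monocyte maturation when overexpressed, passed no test. It was at 3.87, 2.79 and 3.30 FPKM in Control, 3.24, 3.01 and 2.06 FPKM in IL-4 Mϕs and 3.37, 2.91 and 2.98 FPKM in IL-6 Mϕs. The groups overlapped in all 3 comparisons, and the log2 fold change with IL-6 was −0.09 (95% interval −0.56 to 0.37).

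Neither FOXO gene passed the test in any comparison. Foxo3 was at 20.0, 14.1 and 15.5 FPKM in Control, 14.0, 12.3 and 7.56 FPKM in IL-4 Mϕs and 15.0, 13.0 and 12.9 FPKM in IL-6 Mϕs. The IL-4 libraries lay below Control, IL-4 #1 only just. The IL-4 log2 fold change was −0.58 (95% interval −1.13 to −0.04, adjusted p = 0.112 by limma) and −0.27 with IL-6 (95% interval −0.81 to 0.28). Foxo1 was at 2.55, 1.75 and 2.13 FPKM in Control, 1.84, 1.67 and 1.10 FPKM in IL-4 Mϕs and 2.54, 2.23 and 2.43 FPKM in IL-6 Mϕs. The IL-6 libraries lay above the IL-4 libraries, with a log2 fold change of 0.64 (SE 0.224, adjusted p = 0.0569 by limma). This passed with the set in the model or without IL-4 #1 (0.78, adjusted p = 0.0367 in both) and with limma voom on fragments (0.68, adjusted p = 0.0436). In M21, 7.78% of the exonic bases of Foxo1 are shared with Gm20402 on the opposite strand.

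Counted by separation alone, the libraries of IL-4 and Control did not overlap for 3 of 10 members (40.3% of all genes tested), those of IL-6 and Control for 5 (43.2%) and those of IL-6 and IL-4 for 7 (56.9%). IL-4 #3 was low for most members. It was 0.482 to 1.21 times the mean of IL-4 #1 and #2 over the 10 genes, against a median of 0.766 over all genes, and Gata1 was the only member above 1.

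**Figure D5:**
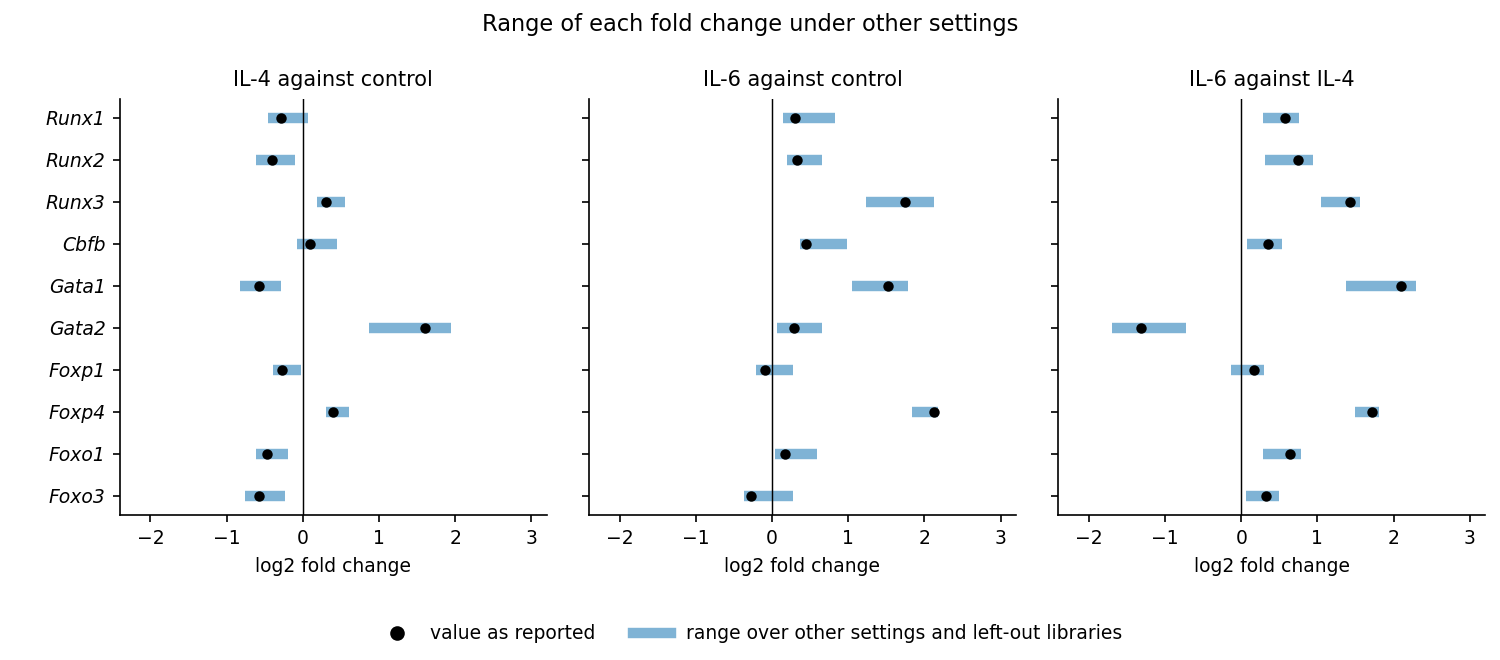
Log2 fold change of each gene as reported (points) and its range over other pseudocounts, filters, scalings, fits and left-out libraries (bars), for the 3 comparisons. The bars of the called genes stay on one side of 0, Foxp4 with IL-6 from 1.84 to 2.18 and Gata2 with IL-4 from 0.87 to 1.95, while those of Runx1 and Cbfb with IL-4, of Foxo3 and Foxp1 with IL-6, and of Foxp1 between the cytokines cross it.

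Of 39 other RUNX, GATA and FOX genes in the table, 8 passed the filter, all of them FOX genes, and 6 were at 0 in all libraries. Foxk2, Foxj2, Foxn2 and Foxo4 were the highest, with means of 8.83, 8.40, 7.95 and 7.22 FPKM over the 9 libraries. With IL-4 1 of 8 was called (24.8% of all genes), Foxo4, which fell from 9.34 ± 0.281 to 4.76 ± 1.02 FPKM (SD, n = 3), a log2 fold change of −0.98 with an adjusted p of 0.00348 by limma. With IL-6 0 of 8 were called by limma against Control (8.40% of all genes), by limma voom or at an unadjusted p under 0.05. Between IL-6 and IL-4 3 of 8 were higher (20.8% of all genes). Among them were Foxj2 (1.04, adjusted p = 0.0241 by limma) and Foxn2 (1.07, adjusted p = 0.0498). Gata3, the T-cell member, had a mean of 0.068 FPKM, and Foxp2 one of 0.001 FPKM.

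Of 20 RUNX partners and corepressors tested, 0 were called with IL-4 by limma or limma voom, beside 24.8% of all genes by limma. At an unadjusted p under 0.05 there was 1. With IL-6 1 rose and 2 fell, beside 4.58% and 3.82% of all genes. Their median log2 fold changes were −0.01 and 0.06, beside −0.20 and 0.00 for all genes. Hdac1, a histone deacetylase, went from 14.1 ± 0.0270 to 19.1 ± 0.592 FPKM (log2 fold change 0.43, adjusted p = 0.0259 by limma). Tle1, a Groucho corepressor that RUNX proteins recruit, fell from 1.10 ± 0.133 to 0.266 ± 0.0543 FPKM (−1.72, adjusted p = 0.00382), and Cebpa, the myeloid factor that acts with Runx1, fell too (−0.81, adjusted p = 0.0146). Of 14 tested genes known as RUNX-regulated in blood or bone cells, 1 rose and 9 fell with IL-4 and 3 rose with IL-6, with median log2 fold changes of −1.43 and 0.36. Of all genes, 8.55% rose and 16.3% fell with IL-4 and 4.58% rose with IL-6, and the medians of all genes were −0.20 and 0.00. Mmp13, a collagenase that Runx2 controls in bone, rose with IL-4 (log2 fold change 5.49, adjusted p = 2.69e-06 by limma). Osteoclast markers rose beside it, 4 of the 4 tested (8.55% of all genes) with a median log2 fold change of 5.03. Calcr, the other marker of the list, was under the filter, at 0 in every library but Control #2 (0.009 FPKM). The part of these markers in the Mmp13 result was not tested. The 5 markers of the list summed to 18.8 to 29.2 FPKM in Control, 342 to 552 FPKM in IL-4 Mϕs and 34.0 to 42.7 FPKM in IL-6 Mϕs. Ctsk, the collagen-degrading protease of osteoclasts, gave much of this sum and went from 7.21 ± 1.92 to 224 ± 57.5 FPKM with IL-4. Cd4, silenced by Runx3 in CD8 T cells, fell with IL-4 (−5.86, adjusted p = 3.04e-06), where Runx3 was not called (0.30, adjusted p = 0.339). With IL-6, where Runx3 rose, Cd4 was at 46.8 ± 3.06 FPKM beside 34.6 ± 1.49 FPKM in Control. A link between the 2 genes was not tested. Among the 3 that rose with IL-6 was Socs3, the gene used above as a check of the IL-6 treatment (5.12, adjusted p = 3.02e-05). Ccl5, a chemokine, rose with IL-6 too (2.93, adjusted p = 0.000191). Elane, Mpo and Ctsg of this list are granule genes of neutrophil precursors, whose 8 markers summed to 938 to 1618 FPKM in Control, 330 to 509 FPKM in IL-4 Mϕs and 1476 to 2097 FPKM in IL-6 Mϕs. Of these 8 markers, 6 fell with IL-4 (16.3% of all genes). With IL-6 0 were called by limma (8.40% of all genes) or limma voom, with 3 at an unadjusted p under 0.05.

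Of 12 GATA partners tested, 1 rose and 6 fell with IL-4, with a median log2 fold change of −0.76 beside −0.20 for all genes, of which 8.55% rose and 16.3% fell. Gfi1b, a transcriptional repressor that acts within the megakaryocyte and erythroid lineages, rose from 0.607 ± 0.242 to 3.13 ± 0.929 FPKM (2.22, adjusted p = 0.0051 by limma). Lyl1, a bHLH partner of Lmo2, fell from 53.8 ± 6.97 to 10.2 ± 2.86 FPKM (−2.42, adjusted p = 0.00012). With IL-6 1 rose and 1 fell (4.58% and 3.82% of all genes), with a median of 0.12. Tal1, the bHLH protein of the GATA complex, rose from 2.18 ± 0.128 to 4.60 ± 0.596 FPKM (1.03, adjusted p = 0.0218), and Lmo2, its bridging protein, fell (−0.49, adjusted p = 0.0249).

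Of 25 kinases and regulators upstream of FOXO proteins, 2 rose and 4 fell with IL-4 and 0 were called with IL-6 by limma or limma voom, with 3 at an unadjusted p under 0.05. Over all genes the shares called were 24.8% and 8.40%. The medians of this list were −0.34 and 0.23, beside −0.20 and 0.00 for all genes. Sgk1, a kinase that phosphorylates FOXO proteins, rose with IL-4 (log2 fold change 0.71, adjusted p = 0.0156 by limma), and Pik3r1, the regulatory subunit of PI3K, fell (−1.37, adjusted p = 0.0353). Of 28 FOXO targets tested, 4 rose and 10 fell with IL-4 and 7 rose and 4 fell with IL-6, with medians of −0.37 and 0.28. The shares of all genes were 8.55% higher and 16.3% lower with IL-4 and 4.58% higher and 3.82% lower with IL-6, with medians of −0.20 and 0.00. Klf4, a zinc finger factor, rose from 0.897 ± 0.279 to 18.9 ± 7.25 FPKM with IL-4 (4.22, adjusted p = 4.79e-05 by limma), and Sesn1, a stress-induced inhibitor of mTORC1 signalling, fell from 70.1 ± 5.31 to 15.4 ± 5.22 FPKM (−2.24, adjusted p = 0.000388). Sod2, mitochondrial superoxide dismutase, rose from 22.4 ± 0.838 to 128 ± 9.28 FPKM with IL-6 (2.51, adjusted p = 1.27e-05).

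For the called member of each family with the largest change against Control, the genes whose log2 levels followed it most closely over the 9 libraries were sought among the 12824 tested, as a description. For Foxp4 they were Tma16 (Pearson r = 0.997), Cpne8 (0.993) and Bst1 (0.992), for Runx3 Jarid2 (0.993), Gm48065 (0.991) and Ctsc (0.988), and for Gata2 Rundc1 (0.968), Rcc1 (0.968) and Gm16201 (0.961). The points share their libraries and fall into 3 groups. Bst1, an ADP-ribosyl cyclase of myeloid and stromal cells, went from 4.66 ± 0.447 FPKM in Control to 40.9 ± 1.31 FPKM in IL-6 Mϕs. Jarid2, a component of the PRC2 complex, went from 2.99 ± 0.490 to 9.73 ± 0.450 FPKM in IL-6 Mϕs. Rundc1 was at 6.52 ± 0.255 FPKM in Control and 7.73 ± 0.197 FPKM in IL-4 Mϕs and was not called (0.24, adjusted p = 0.163 by limma).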

How the data were processed

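RNA-seq of 9 libraries (3 per group) was re-analysed from the FPKM that the authors deposited. Stranded polyadenylated libraries were sequenced on a HiSeq2500. The methods name STAR 2.4.2a, GRCm38, Cufflinks 2.2.1 and GENCODE M5. The deposited values are whole fragments over exon lengths (100.0% of 100883 low values within 0.05), as a read counter gives, so the program and annotation behind them are not settled. Of 53379 identifiers, 50604 (94.8%) matched GENCODE M21 with their version. Runx1 did so only without its version, and its exon length, 11827, was solved from the values. Depth was 29988160 to 39909571 fragments, and errors from fragments cover counting only.

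The members and lists were chosen with earlier results of these data known. log2(FPKM + 0.1) of 12824 genes with a mean of at least 0.5 FPKM was fitted with limma 3.58.1 in R 4.3.3 (trend and robust options, 3 groups in 1 model, Benjamini-Hochberg adjustment), tested on simulated data. Single genes also had two-sided exact permutation tests, whose smallest p is 0.1. Named genes are all members, up to 2 largest rises and falls per list and comparison among called genes whose groups do not overlap, the 3 genes most like the called member with the largest change against Control per family, and Socs3 and Arg1. Foxk2, Gata3, Foxp2 and single marker genes outside this rule, and the ratios within libraries, were chosen after their values were seen. Sets of libraries were split at 20 gut fragments. No source used here says which libraries came from the same mouse. The alternatives are described in the closing section. Python 3.11.15, numpy 2.4.6, pandas 2.3.3, scipy 1.17.1 and matplotlib 3.10.9 made tables and plots.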

Additional observations from a re-analysis of the deposited data

How the results depend on the processing

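The alternatives were pseudocounts of 1 and 0.01, no filter, a mean of at least 5 FPKM, median-ratio rescaling, quantile normalization, only the groups compared, the library number as a term, the set of libraries as a term, limma voom on fragments, a log2 fold change of at least 1, and each library left out. Of 549 values of members under these, 519 kept their direction and their side of the threshold, 7 lost a call, 13 gained one and 10 reversed. With IL-4, 1 member was called, but 0 at a mean of at least 5 FPKM (3 members tested) and with the set in the model. It was 3 after median-ratio rescaling, 3 after quantile normalization, and 1 to 4 with a library left out, 4 without IL-4 #3. Of all 12824 genes, 3192 were called after median-ratio rescaling, 3401 after quantile normalization and 4848 without IL-4 #3, beside 3186 as reported. With IL-6, 3 members were called, 1 at 5 FPKM, and 2 to 4 with a library left out. Between the cytokines 4 were called, 1 at 5 FPKM, and 4 to 5 with a library left out. The reversed values, none of them called, were Runx1 with IL-4 (−0.28), 0.07 with the set in the model and −0.46 to 0.02 over the left-out libraries (0.02 without IL-4 #3), Cbfb with IL-4 (0.10), −0.08 to 0.38 over the left-out libraries (−0.08 without IL-4 #1 and −0.01 without IL-4 #2), and Foxo3 with IL-6 (−0.27), 0.27 with the set in the model. The others were Foxp1 with IL-6 (−0.09), 0.28 with the set in the model and −0.21 to 0.02 over the left-out libraries (0.02 without Control #1), and Foxp1 between the cytokines (0.17), −0.02 after median-ratio rescaling, −0.13 after quantile normalization and −0.02 to 0.30 over the left-out libraries (−0.02 without IL-4 #3). The cause was not tested. Libraries of the same number are known to share only that number. Their deviations from the group means correlated at 0.521, −0.415 and 0.0777 (Control and IL-4), 0.408, 0.201 and 0.166 (Control and IL-6) and 0.281, −0.0612 and 0.153 (IL-4 and IL-6), and a library correlated best with its own number in 11 of 18 checks. With the number as a replicate block 1, 3 and 4 members were called and no call changed. Genes called in all with IL-4 were 3186, but 1839 at 5 FPKM (6559 tested), 1796 with only the groups compared, 1367 with the set in the model and 2026 to 4848 with a library left out. With IL-6 they were 1077, but 628, 2822, 187 and 462 to 3168, the last without IL-4 #3. Between the cytokines they were 4375, but 2479 at 5 FPKM and 2911 to 5544 with a library left out. Gata1 and Gata2 rest on 52 to 355 fragments a library, which limits their precision.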
